A study of Mus musculus with 32 samples.

Results

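The genes around Sall1 on mouse chromosome 8 were described in brain samples of 2 mouse lines, one of which carries its inducible Cre recombinase under the name of that gene. Members were the rows of the deposited count table on chromosome 8 with a start from 81500000 to 101500000 (mm9), about 10 Mb to either side of Sall1 (chr8:91551143-91568061, minus strand). The interval holds 207 of the 24411 rows of the table. Sall1 itself and 12 others named or prefixed in the rule were left out, as were 28 non-coding rows, so that 166 genes remained. Levels did not enter the choice, but it was made with earlier results of these data known.

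Both lines had the strain label C57BL/6 and the RPL22-HA (RiboTag) allele. After Cre has acted, this allele yields ribosomes with a haemagglutinin (HA) tag, and their RNA can be pulled down with an antibody to HA. The lines were Cx3cr1-CreER:RPL22-HA (mice 1 to 4) and Sall1-CreER:RPL22-HA (mice 7, 9, 17 and 21), called the Cx3cr1 line and the Sall1 line, and each of the 8 was gavaged with tamoxifen on 4 alternate days (5 mg each) when 4 to 6 weeks old. Each brain gave 4 libraries of polyadenylated RNA: sorted microglia (Sort), anti-HA precipitate of sorted microglia (SortIP), and anti-HA (HA) and control antibody (IgG) precipitates of whole homogenate. The sources used here do not say how the CreER alleles were built, and a line without CreER was not analysed here.

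Sall1 encodes a zinc finger transcription factor that, within the brain's myeloid cells, marks microglia and is needed for their identity. Genes close to a modified locus are inherited together with it through breeding, and the neighbourhood of such a locus is commonly inspected when lines are compared. The members form no pathway. They include adhesion G protein-coupled receptors, a sensor of bacterial cell walls, a neuronal calcium channel and many housekeeping genes.

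Title and antibody label contradict the description for the 8 sorted libraries of the Cx3cr1 line, as to which is Sort and which SortIP. Counts of the Sort and SortIP library of each mouse were therefore added, which gives 4 values per line that do not depend on this conflict. These sums held 1732758 to 2867701 counts in the Cx3cr1 line and 1272265 to 2433699 in the Sall1 line. Levels are in counts per 1000000 of the library or sum (CPM), given as mean ± SD over n = 4 mice, and differences between lines are log2 fold changes ± SE, Sall1 line over Cx3cr1 line. A gene was called where the adjusted p (edgeR's quasi-likelihood test, Benjamini-Hochberg over all genes tested) was under 0.05. Sall1 itself stood at 450 ± 39.4 CPM in the Cx3cr1 line and 262 ± 20.9 in the Sall1 line (−0.76 ± 0.10, adjusted p = 3.2e-04), and the IgG precipitates held 15.1 ± 2.19 and 14.6 ± 6.14 CPM. Microglial markers made up the bulk of marker counts in both lines (20 genes, summed 85594 to 89884 CPM in the Cx3cr1 line and 83016 to 89969 in the Sall1 line). Of these 20, 1 was called higher (all genes, 1.62%) and 3 lower (all genes, 1.05%), and Sall1 itself is 1 of the 3. The summed level of 10 markers of perivascular and border macrophages was 330 to 423 CPM in the Cx3cr1 line and 558 to 827 in the Sall1 line, without overlap, and all 5 of them that were tested were called higher. Summed monocyte markers (5 genes, of which Ly6c2 was at 0 in the Cx3cr1 line) were at 5.19 to 9.76 CPM and 10.5 to 23.4 CPM. What part these cells had in the differences below was not tested, and in such bulk samples more cells of a type and more RNA per cell cannot be told apart.

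In sorted cells, 6 of the 107 members that passed the low-count filter were called, against 2.67% of all 9966 genes tested. Of these, 5 were higher in the Sall1 line (all genes called higher, 1.62%), among them Cacna1a, Ccdc102a and Nod2, and Adgrg1 was lower (all genes called lower, 1.05%). The other 101 members ran from −0.63 to 0.62 on the log2 scale, and 94 of them lay within 0.5 of 0. DESeq2 called the same 6 and Lpcat2 (all genes, 2.2%). The median over the 107 members was −0.02, that over all genes tested −0.01, and the median absolute value was 0.16 and 0.15. Of the 59 members without a test, 24 had no count in any sorted library, and none of the others exceeded 79 counts over all 8 mice.

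**Figure D1:**
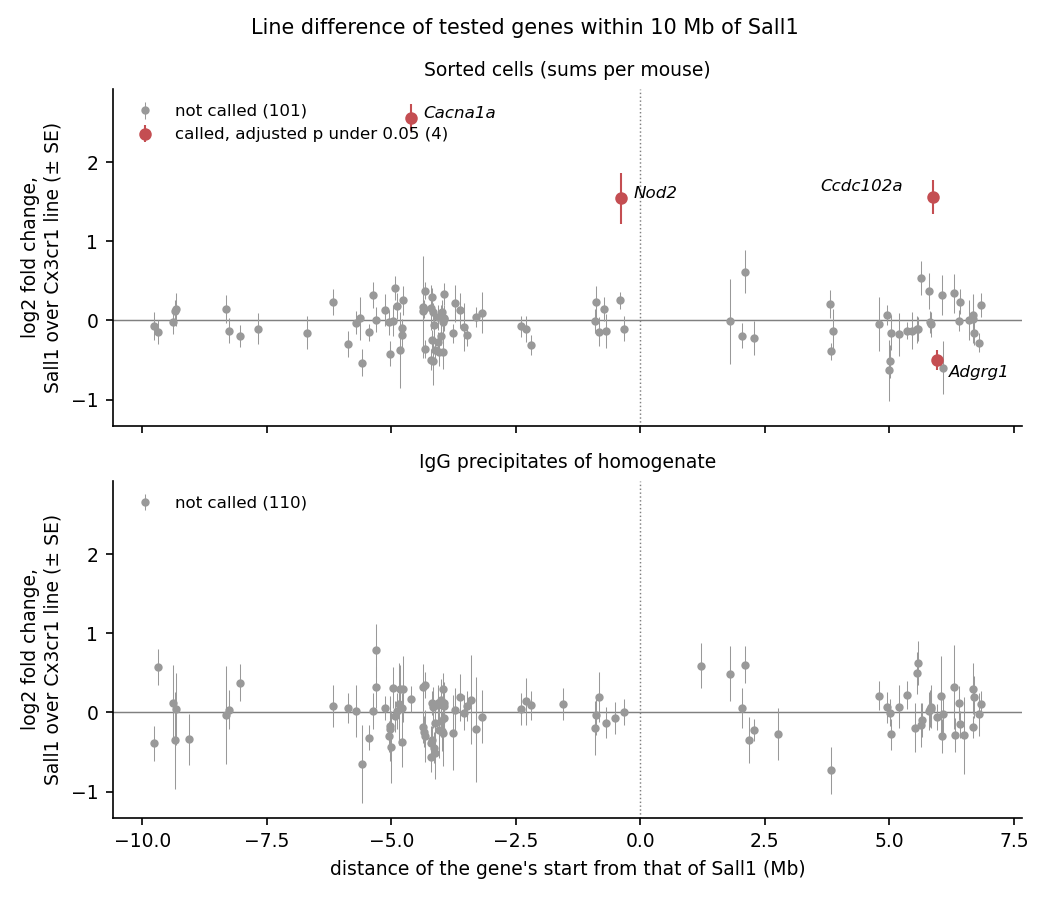
Log2 fold change of tested members between lines (points, with SE as vertical bars) against the distance of their start from that of Sall1 in Mb, in sums of sorted libraries per mouse (top, 105 genes) and in IgG precipitates (bottom, 110 genes). The called genes drawn are in red (Cacna1a, Ccdc102a and Nod2 above 0, Adgrg1 below), and no member was called in the IgG precipitates.

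Cacna1a (chr8:86939263-87164148, plus strand) lies 4.61 Mb below Sall1. It encodes the pore-forming subunit of P/Q-type calcium channels, which trigger transmitter release in neurons. The sums of the Cx3cr1 line were at 13.2, 13.9, 10.1 and 14.8 CPM and those of the Sall1 line at 60.6, 72.8, 82.6 and 84.1 CPM. The highest mouse of the Cx3cr1 line was far below the lowest of the Sall1 line. With means of 12.99 ± 2.04 and 75.0 ± 10.8 CPM, the log2 fold change was 2.56 ± 0.17 (adjusted p = 7.6e-08), called in all 18 alternative fits at 2.15 to 2.80. It was the 19th largest absolute fold change and the 6th smallest p of all genes tested. Single sorted libraries ran from 6.70 to 19.3 CPM and from 43.9 to 108.7 CPM.

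Homogenates gave another picture for Cacna1a. IgG precipitates held 268 ± 39.3 CPM in the Cx3cr1 line and 306 ± 31.9 CPM in the Sall1 line, overlapping, with a log2 fold change of 0.17 ± 0.16 that was not called. HA precipitates held 28.3 ± 6.75 and 25.4 ± 2.71 CPM. The difference between the sorted and the IgG line contrast was 2.39 ± 0.24 (adjusted p = 4.0e-05, edgeR's interaction term over 8 sums and 8 IgG libraries), and it was called in all 12 alternative fits at 2.27 to 2.48. Neuronal markers in the sorted sums lay between 91.1 and 182 CPM in the Cx3cr1 line and between 110 and 211 CPM in the Sall1 line over 10 genes, and of the 8 tested none was called. The genes to either side of Cacna1a, Ccdc130 and Ier2, lie 144.961 kb and 21.081 kb away, and neither was called.

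Ccdc102a (chr8:97426769-97441998, minus strand, 5.88 Mb above Sall1) encodes a coiled-coil protein. The levels per mouse were 10.1, 14.4, 11.5 and 6.65 CPM in the Cx3cr1 line, and 28.7, 36.6, 30.8 and 26.7 CPM in the Sall1 line. The lowest mouse of the Sall1 line exceeded the highest of the Cx3cr1 line. Means were 10.7 ± 3.23 and 30.7 ± 4.28 CPM, and the log2 fold change was 1.56 ± 0.22 (adjusted p = 3.8e-04), called in all 18 alternative fits at 1.38 to 1.91. In single sorted libraries the ranges were 1.48 to 17.2 and 25.0 to 44.2 CPM, again without overlap. IgG precipitates held 1.92 ± 1.32 and 2.73 ± 1.42 CPM, below the filter, and HA precipitates 9.83 ± 7.12 and 5.25 ± 0.843 CPM. The HA mean of the Cx3cr1 line rests on 1 to 8 counts per library. HA libraries held 286418 to 574671 counts in the Cx3cr1 line and 1894943 to 3027342 in the Sall1 line.

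The window upstream of Ccdc102a is shown because it is the start of a gene that was called in every alternative fit. It holds the 250 bases before the RefSeq start on the gene's own strand, at chr8:94918099-94918348 (minus strand) in GRCm38.p6, which is not the mm9 build of the count table. Capitals mark CG, each a CpG dinucleotide and so a possible site of DNA methylation.
Ccdc102a: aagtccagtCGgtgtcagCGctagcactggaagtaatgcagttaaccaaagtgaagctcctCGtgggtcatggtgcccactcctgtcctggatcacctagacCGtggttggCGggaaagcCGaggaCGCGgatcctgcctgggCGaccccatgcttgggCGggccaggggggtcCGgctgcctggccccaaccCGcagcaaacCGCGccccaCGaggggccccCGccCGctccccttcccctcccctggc
The window holds 17 CpG, more than 76.5% of all 32851 RefSeq windows of this length, whose median was 6. The 151 windows of the 127 members with an entry had a median of 12, and 92.1% of all windows held at least 1. Methylation was not measured, and the reference sequence need not be that of either line.

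Adgrg1 (GPR56; chr8:97501009-97538108, plus strand), an adhesion receptor typical of microglia and neural progenitors, starts 5.95 Mb above Sall1. It stood at 890, 1114, 862 and 867 CPM in the mice of the Cx3cr1 line and at 633, 786, 648 and 535 CPM in those of the Sall1 line. It was the only called member with the lower values in the Sall1 line, without overlap between mice. Means were 933 ± 121 and 651 ± 103 CPM (−0.50 ± 0.12, adjusted p = 0.0410). This call was lost in 9 of 18 alternative fits, among them 7 of the 8 that left out 1 mouse, with values from −0.85 to −0.14, and single sorted libraries overlapped (771 to 1273 and 500.2 to 863 CPM). The next gene, Adgrg3 (Gpr97), had no count in a sorted library of the Cx3cr1 line and 0.79 ± 0.63 CPM in the Sall1 line, and was not tested. Of the other adhesion receptors, Adgrl1 (latrophilin 1) was not called, and Adgre5 (CD97), at 1.25 ± 0.861 CPM in the Cx3cr1 line and 3.35 ± 2.34 CPM in the Sall1 line, was below the filter.

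**Figure D2:**
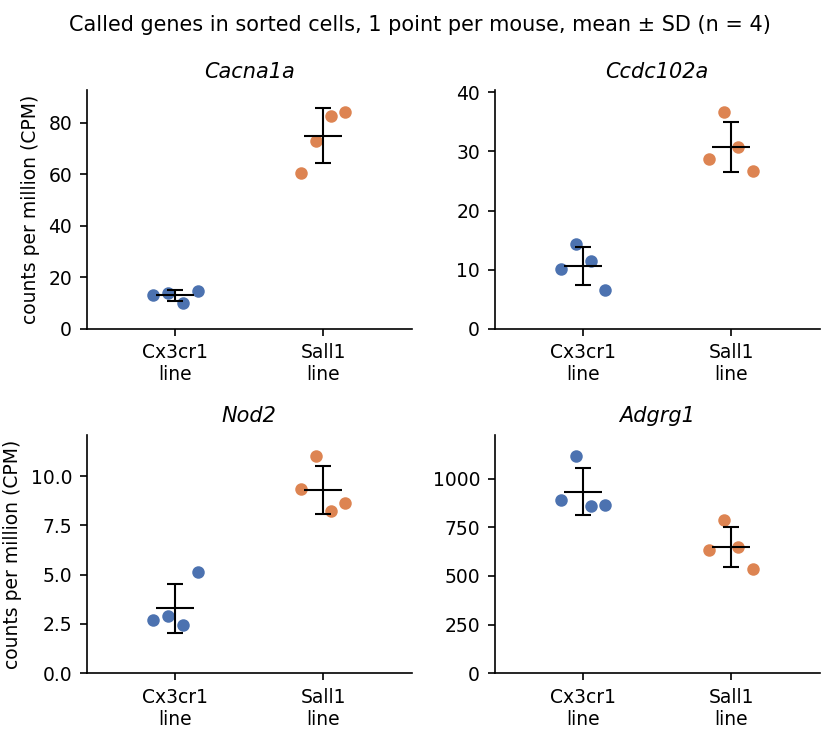
Level of 4 called members in CPM in sorted cells, with 1 point per mouse (Sort and SortIP counts added) and lines for mean ± SD (n = 4 mice per line). All mice of the Sall1 line lie above those of the Cx3cr1 line for Cacna1a, Ccdc102a and Nod2, and below them for Adgrg1.

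Nod2 (chr8:91171246-91212373, plus strand) encodes an intracellular sensor of bacterial muramyl dipeptide. It is the called member nearest to Sall1, with 338.769 kb between both genes. Sums of the Cx3cr1 line held 7, 5, 7 and 10 counts (2.71, 2.89, 2.44 and 5.11 CPM), and those of the Sall1 line 12, 24, 20 and 11 counts (9.32, 11.0, 8.22 and 8.65 CPM). The mice did not overlap, at low counts throughout. The log2 fold change was 1.54 ± 0.33 (adjusted p = 0.0163). It lost the call without Cx3cr1 mouse 1, Cx3cr1 mouse 3 or Sall1 mouse 9 (adjusted p of 0.0551 to 0.0624) and had too few counts for a test in either kind of sorted library alone. By title, its ranges overlapped in Sort (0 to 10.3 CPM in the Cx3cr1 line and 7.57 to 12.3 CPM in the Sall1 line) and not in SortIP (2.35 to 4.18 and 7.60 to 12.0 CPM). By description, the ranges of the Cx3cr1 line change places, so that the lines overlapped in SortIP and not in Sort. IgG precipitates held 0.448 ± 0.371 and 0.309 ± 0.618 CPM.

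The tested genes to either side of Nod2 and the 3 nearest to Sall1 above it were not called. Snx20, a sorting nexin of leukocytes and 11.218 kb away from Nod2, was at 0.25 ± 0.10 (adjusted p = 0.279). Cyld, a deubiquitinase that restrains NF-kappa B signalling, lies 8.553 kb away and was at −0.10 ± 0.16. Above Sall1, the nearest tested genes were Chd9, a chromatin remodeller (−0.01 ± 0.54), Rbl2, the retinoblastoma relative p130 (−0.19 ± 0.16), and Aktip, a protein of vesicle traffic and telomeres (0.62 ± 0.27, adjusted p = 0.337). The level of Chd9 varied widely within lines (102 ± 62.2 CPM in the Cx3cr1 line and 101 ± 38.3 CPM in the Sall1 line). Aktip and Rbl2 overlap by 346 bases on opposite strands, and the sources used here do not say whether counting used the strand. Aktip was at 0.60 ± 0.23 in IgG precipitates of the same brains, where it was not called either.

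**Figure D3:**
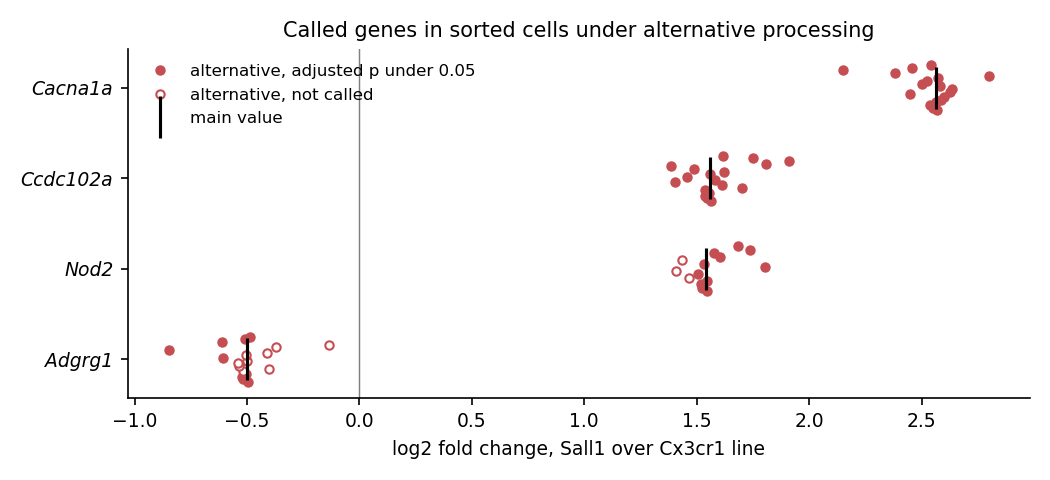
Log2 fold change of 4 called members in sorted cells under each alternative fit (filled points, adjusted p under 0.05; open points, not called; black bars, the value reported). Cacna1a and Ccdc102a were called in all 18 alternatives, whereas Nod2 and Adgrg1 each have open points.

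By function, 1 of 8 tested members in innate immunity and lipid mediators was called (Nod2), 1 of 11 in signalling (Cacna1a), and 0 of 11 in transcription and chromatin, 0 of 10 in lysosome, endoplasmic reticulum and vesicle traffic, 0 of 11 in mitochondria and metabolism and 0 of 23 in RNA processing, protein synthesis and quality control (all genes, 2.67%). Adhesion receptors are not tallied here. The medians of these lists lay between −0.06 and 0.02. Just outside the threshold was Lpcat2, an enzyme of platelet-activating factor synthesis, at 745 ± 55.5 and 562 ± 63.1 CPM (−0.39 ± 0.10, adjusted p = 0.0535). Gadd45gip1, a protein of the mitochondrial ribosome, was at −0.50 ± 0.13 (adjusted p = 0.0567) and at −0.57 ± 0.19 in IgG precipitates. Lyl1, a haematopoietic transcription factor, was at 0.37 ± 0.11 (adjusted p = 0.0845), and Nfix, a nuclear factor I of brain development, at −0.36 ± 0.11 (adjusted p = 0.114).

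The members with the highest levels per kb of transcript were not called. These were Calr, the endoplasmic reticulum chaperone calreticulin (462 CPM per kb), Man2b1, the lysosomal alpha-mannosidase (311 CPM per kb), Lpcat2 (235 CPM per kb) and D8Ertd738e (231 CPM per kb). Man2b1 stood at 1338 ± 132 and 1335 ± 138 CPM, a log2 difference of 0.02 ± 0.11. Calr was at 804 ± 96.3 and 982 ± 62.8 CPM (0.30 ± 0.11, adjusted p = 0.177). Its 4 mice of the Sall1 line all lay above those of the Cx3cr1 line, as for 8 tested members in all (all genes, 4.14%). Another 11 did not overlap in the other direction (all genes, 5.06%), which makes 17.8% of the 107 either way (all genes, 9.2%). An unadjusted p under 0.05 was found for 24 of the 107 members (22.4%) and for 1302 of all genes (13.1%).

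The called members were not ordered by distance. Below Sall1, 1 of 11 tested members was called within 2.5 Mb, 1 of 39 from 2.5 to 5 Mb, 1 of 13 from 5 to 7.5 Mb and 0 of 9 beyond. Above Sall1 the counts were 0 of 4, 0 of 6 and 3 of 25, with no tested gene beyond 7.5 Mb. For other regions, rows were left out by the same rule, so that the counts do not add up to all genes tested. On the rest of chromosome 8, 9 of 403 genes were called (2.23%), and on all other chromosomes 240 of 8828 (2.72%). The latter include the genes within 10 Mb of Cx3cr1, of which 5 of 72 were called (6.94%). The shares of members and of these regions were not compared by a test. Of the called members, 4 had an absolute log2 fold change of at least 1.5, a limit set after their values were seen, and 0.622% of all genes tested were called at this size.

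IgG precipitates of whole homogenate, from the same 8 brains, allowed the line contrast to be read in other libraries. They held 2200897 to 2470411 counts in the Cx3cr1 line and 704183 to 4047465 in the Sall1 line. None of 111 tested members was called by edgeR or by DESeq2 (all genes, 0.00863%, 1 gene of 11593), and 7 members had an unadjusted p under 0.05 (6.31%, all genes 3.17%). Values ran from −0.73 (Lpcat2) to 0.78 (Adgre5). Ccdc102a and Nod2 were too low there for a test, and Adgrg1 (−0.06 ± 0.17) was not called. The level of Sall1 in these precipitates, given above, was far below that in sorted cells, and whether a difference in microglia alone would be detectable in them at this depth was not tested. In the test of the difference between both contrasts, Cacna1a was the only called member of 125 (all genes, 0.18%). For Nfix, the contrasts differed by −0.71 without a call (adjusted p = 0.305).

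**Figure D4:**
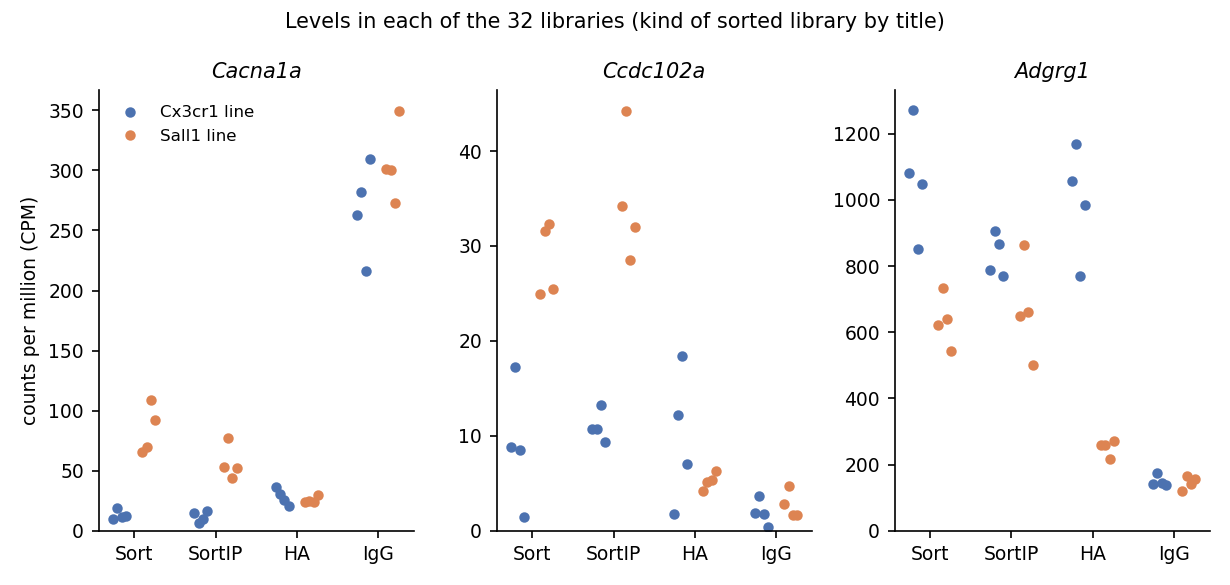
Levels in CPM of Cacna1a, Ccdc102a and Adgrg1 in each of the 32 libraries, by kind of library (Sort and SortIP by title) and line, 1 point per library. Cacna1a and Ccdc102a separate the lines in Sort and SortIP libraries, Adgrg1 does so in Sort libraries and HA precipitates, and in IgG precipitates Ccdc102a is low in both lines whereas Cacna1a is high in both.

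HA precipitates of homogenate were not compared between lines by a test. The tag depends on the CreER allele, which differs between lines, so the tagged cells need not be the same. Levels in these precipitates can therefore not be read as line differences within a cell type. Sall1 stood at 130 ± 30.9 CPM there in the Cx3cr1 line and 30.0 ± 5.02 CPM in the Sall1 line. Among called members, Adgrg1 stood at 995 ± 169 CPM in the Cx3cr1 line and 251 ± 24.6 CPM in the Sall1 line. Man2b1 (905 ± 189 and 104 ± 14.3 CPM) and Lpcat2 (698 ± 84.7 and 60.8 ± 12.9 CPM) were also lower in the Sall1 line there. Others were higher, such as Prdx2, a peroxiredoxin (215 ± 30.2 and 585 ± 99.4 CPM), D8Ertd738e (382 ± 54.5 and 506 ± 34.8 CPM) and Aktip (31.1 ± 4.99 and 67.3 ± 8.04 CPM). The microglial gene Cx3cr1 was at 864 ± 196 and 73.1 ± 11.8 CPM in these precipitates, and its part in the order of the members was not tested.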

How the data were processed

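The authors deposited raw read counts over exons of 24411 genes in 32 libraries. Tools named in the submitters' processing notes are bcl2fastq, HISAT 0.1.5 and HOMER, with the mm9 build; how multiply mapped reads and strand were treated is not stated there. The Sort and SortIP counts of each mouse were added, and all genes were tested with edgeR 4.0.16 in R 4.3.3 (robust quasi-likelihood, TMM, filterByExpr with a minimum count of 10, Benjamini-Hochberg). SE is the absolute log2 fold change over the square root of F. Alternatives were DESeq2 1.42.0, other scalings, no filter, each mouse left out, each sorted kind alone by either label, and limma 3.58.1 (voom) on 16 libraries with mouse as a block. Fits were tested on simulated sorted cells with 4 mouse sums per line. Of the changed genes tested there, 79.6% were recovered at an absolute log2 fold change of 1 and 99% at 2. Of the genes called there, 9.23% were false, which is more than the adjusted p threshold allows. Calls close to that threshold are therefore less certain than their adjusted p states.

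Members, lists and tests were chosen with earlier results of these data known. Named genes were Sall1, the called members whose mean log2 CPM reached 3, the 3 tested members nearest to Sall1 on each side, the 4 highest per kb, the 5 with the smallest p of the contrast difference (of these, Smad1 and Snx20 were not called), and per role list the called members and the highest one; others were named after their values were seen. The results of some called members are not reported here: counts over members include them, and figures leave them out. Also named by the rule, Cx3cr1 (0.70 ± 0.18, adjusted p = 0.0847) and Rpl22 (0.39 ± 0.11, adjusted p = 0.0897) were not called between lines in sorted cells.

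Per the series' design, libraries with the same number within a line come from 1 brain. The deviations of sorted sums and IgG libraries of a mouse correlated at −0.0358 to 0.342 over 8 mice, those of Sort and SortIP at −0.0286 to 0.220. The lines share no mouse, so sums could not be paired between lines. With mouse as a block over 16 sorted libraries, 7 members were called with kinds by title (285 of all 9212 genes tested) and 11 by description (387 of 9212). Between mice of a group, chi-square values of 3.40 to 24.8 for each degree of freedom (24 pairs) exceeded sampling noise. Reads carry no molecular identifiers. The sequences are from RefSeq (GRCm38.p6).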

Additional observations from a re-analysis of the deposited data

Results flagged for a closer look

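Cacna1a differed between lines by 2.39 more on the log2 scale in sorted cells than in IgG precipitates, by the test of the difference itself. Of 81 group values of named genes over 4 samples, 6 had 1 sample far from the other 3 by Dixon's criterion, which chance gives in about 1 of 20 groups. In sorted cells, Adgrg1 stood at 1114 CPM in Cx3cr1 mouse 2 (others 862 to 890), Nod2 at 5.11 CPM in Cx3cr1 mouse 4 (others 2.44 to 2.89) and Nfix at 110.3 CPM in Sall1 mouse 7 (others 92.7 to 95.7). In IgG precipitates, Calr stood at 441 CPM in Sall1 mouse 21 (others 368 to 373), Prkaca, a protein kinase A subunit, at 641 CPM in Cx3cr1 mouse 2 (others 404 to 436) and Gadd45gip1 at 155 CPM in Sall1 mouse 17 (others 111 to 115). Without Cx3cr1 mouse 4 the fold change of Nod2 was 1.80 and remained called, and without Cx3cr1 mouse 2 Adgrg1 was not called.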

How the results depend on the processing

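Cacna1a and Ccdc102a were called in sorted cells in all 18 alternative fits. The count of called members (6) ran from 3 to 6 when 1 mouse was left out, and the count over all genes (266) from 150 to 248. Without Cx3cr1 mouse 1 or mouse 3, 3 members were called, these 2 among them. From Sort libraries alone by title, 16 members and 2078 genes were called, from SortIP libraries by title 16 and 919; by description 138 genes were called from Sort and 94 from SortIP, with 4 members each. By title in Sort libraries alone, Chd9 (1.44) and Man2b1 (−0.47) turned in sign, from −0.01 and 0.02 in the main fit. By these titles, which the descriptions contradict in the Cx3cr1 line, the order of the kinds was opposite in the 2 lines. Mean levels of Chd9 in Sort and SortIP were 44.1 and 136 CPM in the Cx3cr1 line and 124 and 54.4 CPM in the Sall1 line. Those of Man2b1 were 1596 and 1159 CPM, and 1240 and 1496 CPM. With mouse as a replicate block and kinds by description, 11 members and 387 of 9212 genes were called. Within 5 Mb of Sall1, 2 of 60 members were called, a share close to that of all genes. In IgG precipitates 0 members were called in every alternative, and over all genes 0 to 1 when 1 mouse was left out and 2 by DESeq2. For the difference between contrasts, DESeq2 called 2 members, among them Cacna1a, and 40 genes; leaving out 1 mouse gave 12 to 26 genes and 1 member, and the replicate block 23 genes (19 higher, 4 lower; without it 18 and 5) and 1 member, Cacna1a. Members with few counts, above all in the Sall1 SortIP libraries, could not be tested, and nothing here shows that they were equal.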
